A study of Sus scrofa with 57 samples.

Results

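The genes TBX5, TBX2, SIX2, OTX2, EBF3 and NPAS1 encode transcription factors of development. They form one set because regions near them differed between lean and obese pigs in reduced representation bisulfite sequencing (RRBS), though not strongly near EBF3 and NPAS1. They are 6 of the 25285 genes in the expression tables. The RRBS levels that chose them are therefore given as a description with no test. The transcript levels were not used in that choice, although earlier results of these data were known. They were tested for all of these genes except OTX2.

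Mature adipocytes were floated from collagenase-digested retroperitoneal fat of pigs of an F2 cross between Duroc and Göttingen minipigs, picked from the lean and the obese ends of the population and kept with free access to food. RNAseq covered males, 5 lean and 5 obese, with 11 libraries because a second one carries the title of obese pig-572. Its description gives another number, so whether it is the same animal is not certain, and it was averaged with the first. DNA from 11 lean and 12 obese pigs of both sexes was assigned to RRBS and to methylated DNA capture (mDNAcap), in which fragments with methylated CpGs are enriched and counted. Pig-411 carries the label obese, but the study and the header of the authors' comparison place it with the lean pigs, and it was counted there. The mDNAcap comparison holds 11 animals of each group, without names beside the values. The RRBS tables used here give group means, with no depth beside a region.

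Many T-box, homeobox, EBF and bHLH-PAS proteins bind DNA and set the identity of cells in the embryo. Genes of this kind often lie in CpG-rich stretches that carry little methylation. In fat, EBF proteins are known for roles in adipocyte differentiation, and T-box genes mark depots of different embryonic origin.

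Markers of mature adipocytes were high in the RNA of both groups. PLIN1, which coats the lipid droplet, had a mean of 290 FPKM (fragment counts corrected for gene length and sequencing depth, then scaled between libraries) ± 42.4 in lean pigs and 341 ± 69.1 in obese pigs (SD, n = 5 each). LIPE, the hormone-sensitive lipase, stood at 170 ± 53.6 and 166 ± 27.0. All 8 loci found for the adipocyte list were at a mean of at least 1 FPKM in a group, and the list summed to between 738 and 867 FPKM in lean pigs and between 907 and 1100 in obese pigs, sums that overlap once LEP is taken out. LEP, the leptin gene, stood between 7.34 and 54.6 FPKM in lean and between 76.6 and 153 in obese pigs (log2 difference 2.29, limma adjusted p = 0.0903). Collagen and matrix genes of fibroblasts and preadipocytes were present as well, led by COL3A1 at 421 ± 146 FPKM in lean and 374 ± 142 in obese pigs and DCN at 60.1 ± 27.8 and 42.0 ± 27.8. That list summed to between 233 and 705 FPKM in lean and between 253 and 627 in obese pigs, so the groups overlapped, and its gene DLK1 was listed at 0 in every pig. All 7 fibroblast and preadipocyte loci tested had log2 differences under 0, with a median of -0.45. Of the 8 adipocyte loci, 7 had log2 differences above 0, with a median of 0.33. COL1A1 and SLC2A4 each count more than once, being annotated at more than 1 locus. Over all 10246 genes tested, 5157 were lower and 5089 were higher in obese pigs. No locus of either list passed the threshold, but only 1 of all genes tested did (0.00976%). The mesothelial list, with KRT8 highest over the 10 pigs, reached at most 0.235 FPKM in a lean and 0.296 in an obese pig as a sum, and the muscle list, with CKM highest over the 10 pigs and MYH7 highest in lean pigs, at most 0.800 and 1.02. The endothelial and mural list, led by PECAM1, summed to between 1.82 and 17.7 FPKM in lean pigs and between 4.45 and 13.0 in obese pigs. The leukocyte list, led by CD14, summed to between 2.67 and 4.90 in lean pigs and between 2.34 and 5.51 in obese pigs, with CD163 listed at 0. In bulk RNA, fewer cells of a type and less RNA per cell cannot be told apart.

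Within 100000 bases of the 6 loci, the RRBS table built on a minimum of 5 pigs per group (5-5) holds 10 regions of its 610, and the table built on a minimum of 3 (3-3) holds 14 of 2416. In the 5-5 table, 5 of the 10 were lower and 5 were higher in obese pigs, whereas 33.9% of all regions there were lower. In the 3-3 table, 9 of the 14 were lower, against 38.9% of all regions. The groups lay 20 points of methylation or more apart in 4 of the 10 regions (6.07% of all 5-5 regions) and in 5 of the 14 (12% of all 3-3 regions). These shares describe values that the choice of the genes used, and nothing is read from them. The tables come from the same libraries, and 9 of the 10 regions of the 5-5 table share bases with a region of the 3-3 table near the same gene, with the same direction in each of the 11 pairs formed. Positions are those of Sscrofa10.2 as written in the tables, and whether the first base of an RRBS region is counted from 0 or from 1 was not settled. The tables give no strand or exons, so a region is placed within or outside a locus, and the locus start is the end with the lower coordinate.

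**Figure D1:**
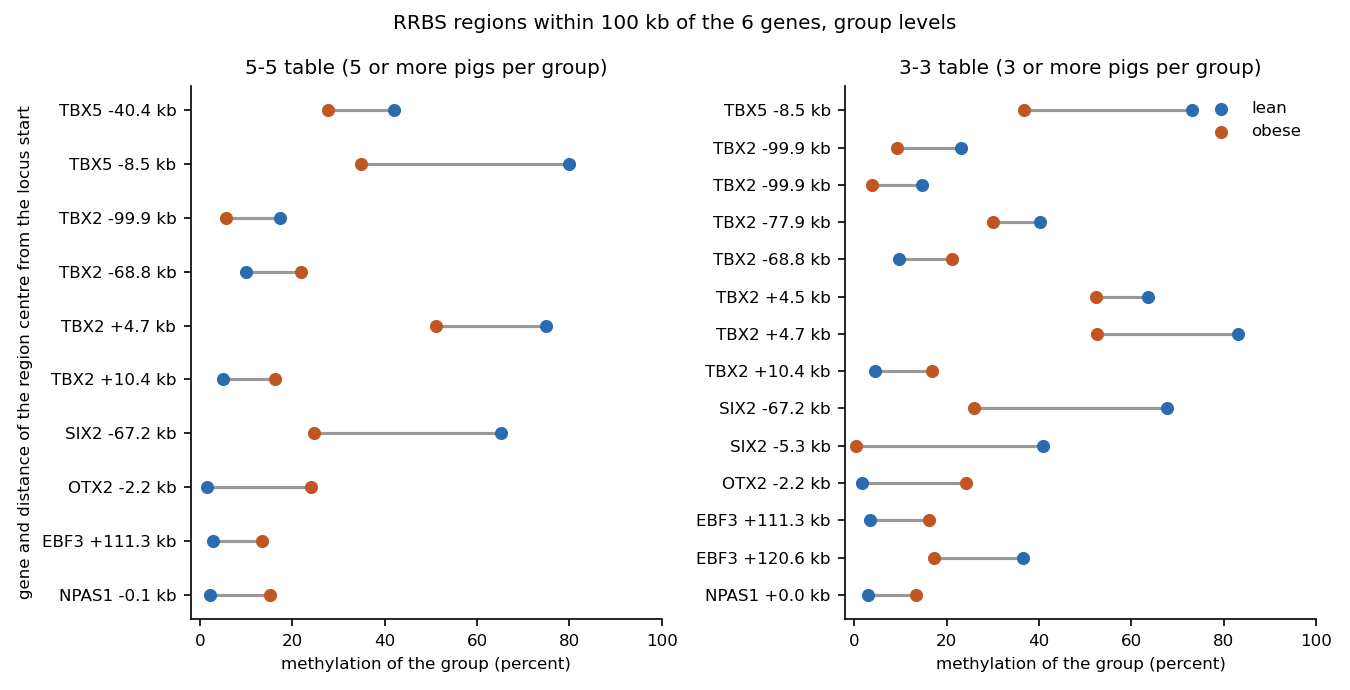
Methylation levels (percent, authors' group means) of lean and obese pigs in every RRBS region within 100 kb of the 6 loci, in the 5-5 table (left) and the 3-3 table (right), with the distance of the region centre from the locus start in the row name. Regions near TBX5 and SIX2 lay lower in obese pigs, and those near OTX2 and NPAS1 were higher in obese pigs, with lean levels under 3%.

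TBX5, a T-box factor of heart and forelimb, lies on chromosome 14 from 40211210 to 40259321. The region at 40202663 to 40202735, 8475 bases below the locus start, had a methylation level of 80.0% in lean and 34.8% in obese pigs over 10 CpGs. This absolute difference of 45.3 points ranks 1 among the 610 regions of the 5-5 table. The 3-3 table extends the region to 40202801 with 14 CpGs, where the levels were 73.2% in lean and 36.7% in obese pigs. The difference there, of 36.5 points, ranks 6 of 2416. A second 5-5 region at 40170722 to 40170815 had 42.0% in lean and 27.8% in obese pigs. Both regions lay outside the locus, and obese pigs had the lower level in each. No mDNAcap region lay within 100000 bases of TBX5.

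SIX2, a homeobox factor that keeps nephron progenitors in their undifferentiated state, lies on chromosome 3 from 101508660 to 101511679. The region at 101441334 to 101441519, 67141 bases below the locus start, had 65.3% methylation in lean and 24.7% in obese pigs, the difference ranked 2 in the 5-5 table. In the 3-3 table the matching region at 101441350 to 101441486 had 67.8% and 25.8% and ranks 1 of 2416. The region ranked 2 there also lay near SIX2, at 101503318 to 101503399, with 40.9% in lean and 0.396% in obese pigs. That region is 5261 bases below the locus start and has no counterpart in the 5-5 table, so its levels may come from as few as 3 pigs in a group. No mDNAcap region lay within the window of SIX2.

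TBX2, a T-box repressor of cell cycle inhibitors, lies on chromosome 12 from 38328615 to 38338207 and had the most RRBS regions of the 6 genes, 4 in the 5-5 and 7 in the 3-3 table. At least as many regions were found near 0.0356% of all genes in the 5-5 and near 0.249% in the 3-3 table, numbers that the choice of the genes used, and the median gene had 0. Inside the locus, the region at 38333139 to 38333545 had 75.0% methylation in lean and 51.1% in obese pigs. The 3-3 table divides this stretch into a part of 10 CpGs with 63.7% in lean and 52.2% in obese pigs and a part of 19 CpGs with 83.1% and 52.6%. Just beyond the locus end, by 812 bases, the region at 38339019 went the other way, with 4.99% in lean and 16.2% in obese pigs. The TBX2 window thus held neighbouring regions that differed in opposite directions. Farther below the locus, the region at 38259816 had 9.84% in lean and 21.8% in obese pigs. The region at 38228696, with 17.3% in lean and 5.69% in obese pigs, lay inside the locus of TBX4, the neighbouring T-box gene, 99886 bases from TBX2 and at the edge of the window. A 3-3 region at 38250633, also in TBX4, was lower in obese pigs as well.

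OTX2, a homeobox factor of the forebrain and eye, lies on chromosome 1 from 206642521 to 206647206. The region at 206640263 to 206640335, 2186 bases below the locus start, had 1.42% methylation in lean and 24.0% in obese pigs over 12 CpGs. The 3-3 table gives the same bases with 1.52% and 24.2%. It was the region with the largest gain among those near the 6 genes in either table.

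EBF3, a member of the early B-cell factor family, spans chromosome 14 from 150935646 to 151052955. The region at 151046738 to 151047096, inside the locus near its upper end, had 2.80% in lean and 13.5% in obese pigs. This difference of 10.7 points ranks 514 among the 610 regions of the 5-5 table, whose median absolute difference was 12.6 points. The 3-3 table adds a region 3184 bases beyond the locus end with 36.6% in lean and 17.3% in obese pigs, again a pair of opposite directions at one locus. NPAS1, a bHLH-PAS repressor of neurons, lies on chromosome 6 from 48231317 to 48248198. The region at 48231076 to 48231379 crosses its locus start and had 2.08% in lean and 15.2% in obese pigs. This difference of 13.1 points ranks 262 in the 5-5 table. The matching 3-3 region differed by 10.6 points and ranks 2191 of 2416.

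In the 5-5 table, the 5 regions near the 6 genes that were higher in obese pigs had lean levels from 1.42% to 9.84%, and the 5 lower regions had lean levels between 17.3% and 80.0%. These regions held 10 to 18 CpGs. The levels describe values that the choice of the genes used, and the 3-3 table gives the higher regions again. Of all 5-5 regions that were higher in obese pigs, 29.5% had a lean level under 10%.

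**Figure D2:**
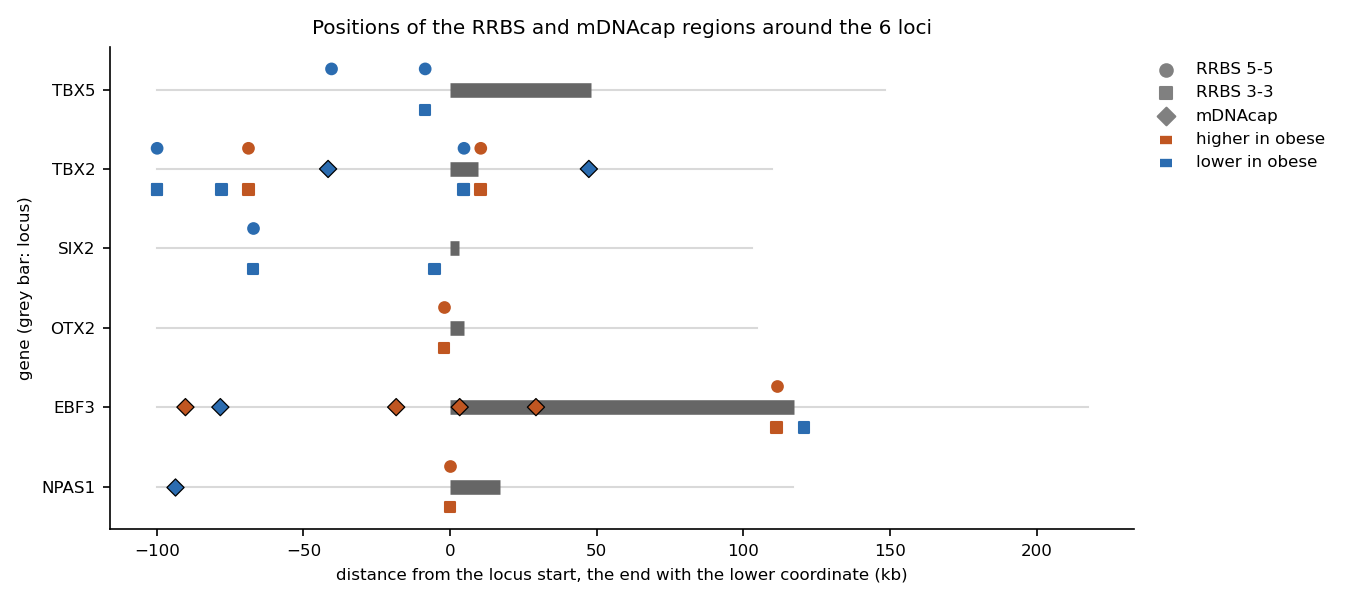
Position of each RRBS region (circles 5-5, squares 3-3) and mDNAcap region (diamonds) relative to the locus start in kb, with loci as grey bars and colours for the direction in obese pigs. The 2 mDNAcap regions inside any of the 6 loci both lay in EBF3, and no mDNAcap region coincided with an RRBS region.

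In mDNAcap, 8 of the 7401 deposited regions lay within the window, 5 near EBF3, 2 near TBX2 and 1 near NPAS1. None lay near OTX2, nor near TBX5 and SIX2, the genes with the largest RRBS differences. The nearest RRBS region of either table was 26594 bases or more away from each of the 8. Of all 25285 genes, 60.8% had no mDNAcap region in the window, so nothing is read from this absence. At least 2 regions lay near 19.5% of all genes and at least 5 near 4.05%. The normalized count of an animal is its read count in the region divided by 1 constant for its library. All 8 regions had an adjusted p under 0.05 in limma, where 96.2% of all deposited regions did. The authors had chosen the regions on these animals, and the share also depended on the scaling, with 39.2% under the median of ratios and 43.2% under the mean read count per bin. Of the 8, 4 were lower and 4 were higher in obese pigs, against 69% and 27.1% of all regions called in these directions, and none of the 8 separated the groups, as 0.149% of all regions did. The call itself is thus no result about the 6 genes, and the levels are the information. Over all regions the median log2 difference was -0.67, and 71.8% of the regions called were lower in obese pigs. With the animals scaled by the median of ratios, that median moved by 0.30 on the log2 scale and 26.8% of the called regions were lower, and with the mean read count per bin it moved by 0.28 and 34.5% were lower.

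The 2 regions inside the EBF3 locus were both higher in obese pigs. At 150938201 to 150939600, normalized counts ran from 16.0 to 41.9 in lean pigs with a median of 29.8, and from 29.3 to 58.1 in obese pigs with a median of 41.2. The log2 difference was 0.44 ± 0.15 (SE, limma adjusted p = 0.0118, permutation p = 0.00547), and 10 of the 11 obese animals lay above the lean median. At 150964401 to 150965400, counts ran from 13.2 to 21.5 in lean pigs with a median of 16.5 and from 15.9 to 49.4 in obese pigs with a median of 23.8. Both comparisons showed overlapping groups, and in the second the highest obese animal stood far above the others. The log2 difference there was 0.46 ± 0.17 (limma adjusted p = 0.0129, permutation p = 0.00236). The region at 150916701, between MGMT and EBF3 and 17846 bases below the EBF3 start, had lean counts from 14.1 to 29.3 with a median of 25.8 and obese counts from 22.5 to 44.8 with a median of 33.5. Its log2 difference was 0.51 ± 0.16. The 3 regions are those of the 8 with a mean count of at least 20, and over all 2346 regions of that depth the median log2 difference was 0.42, so their differences are usual for their depth. They were also higher in obese pigs, past the threshold, under each other scaling tried. Under the median of ratios, 2124 of the 2902 regions called were higher in obese pigs, so nothing is read from this. The authors had chosen the 3 regions on these animals, so their p-values are no support either. The size depended on the scaling, with log2 differences of 0.75, 0.77 and 0.82 in the order given under the median of ratios.

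The remaining 2 regions of the EBF3 window lay in the locus of MGMT, a DNA repair gene, and they differed in direction. At 150844901 the median was 11.4 in lean and 19.0 in obese pigs, with a log2 difference of 0.58 ± 0.20. At 150856601 it was 24.2 in lean and 11.5 in obese pigs, with a log2 difference of -1.02 ± 0.28. The groups overlapped in both. Under the median of ratios the log2 differences were 0.88 and -0.72 in the order given.

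Near TBX2 both mDNAcap regions were lower in obese pigs. At 38286501, lean counts ran from 7.08 to 20.2 with a median of 12.6 and obese counts from 0 to 14.3 with a median of 7.45. At 38375401, they ran from 10.7 to 17.6 with a median of 14.9 in lean pigs and from 1.65 to 14.3 with a median of 9.01 in obese pigs, and all 11 obese animals were below the lean median. The log2 differences were -0.89 ± 0.34 and -0.83 ± 0.26. Neither passed the threshold with counts scaled by the median of ratios (adjusted p = 0.0975 and 0.0681) or by the mean read count per bin (0.0860 and 0.0664). The log2 differences were then -0.63 and -0.54 under the median of ratios and -0.65 and -0.56 under the mean read count per bin. The region near NPAS1, at 48137001 in the locus of ARHGAP35, had a median of 12.4 in lean and 7.33 in obese pigs. Its log2 difference was -1.02 ± 0.32. Under the median of ratios it was -0.76 (limma adjusted p = 0.0537), and under the mean read count per bin -0.78 (limma adjusted p = 0.0403). Depth was low in these regions, with 0 to 31 reads per obese animal near TBX2 and 4 to 53 per lean animal.

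**Figure D3:**
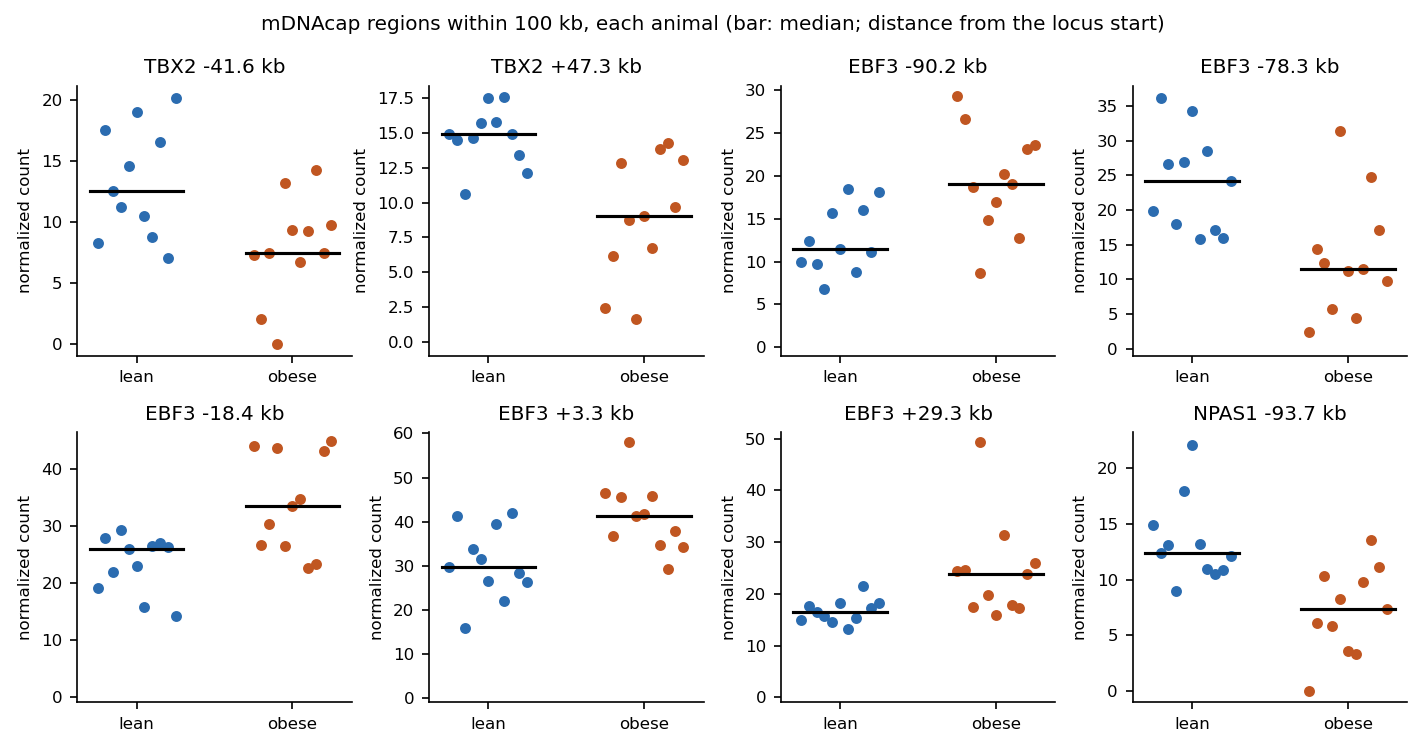
Normalized mDNAcap counts of each of 11 lean and 11 obese animals in the 8 regions within 100 kb of TBX2, EBF3 and NPAS1, with the median as a bar and the distance from the locus start above each panel. The groups overlap in all 8 regions.

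By the rule that a gene is expressed at a mean of at least 1 FPKM in lean or in obese pigs, EBF3 was expressed and the other 5 genes were not. EBF3 stood at 1.23, 1.21, 0.910, 0.963 and 0.961 FPKM in lean pig-402, pig-407, pig-413, pig-525 and pig-577, and at 1.64, 1.17, 0.644, 0.621 and 0.846 in obese pig-433, pig-473, pig-524, pig-529 and pig-572. The obese pigs held both the highest and the lowest values, so the groups overlapped. The means were 1.06 ± 0.154 in lean and 0.983 ± 0.427 in obese pigs (SD, n = 5 each). The log2 difference was -0.07 ± 0.14 (SE, limma adjusted p = 0.787, two-sided exact permutation p = 0.571). With each pig left out in turn it ran from -0.18 without pig-433 (exact permutation p = 0.0952) to -0.01 without pig-529 (p = 0.952), so its size depended on single pigs. Over all 10246 genes tested, 1 passed the threshold (0.00976%), and the unadjusted p was under 0.05 for 2131 (20.8%). EBF3 lay at the threshold of expression and was no longer among the genes tested when pig-402 or pig-433 was left out. Of all genes, 59.8% had a lower mean than EBF3.

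The T-box members were under that level. TBX5 stood at 0.0955, 0.273, 0.0935, 0.389 and 0.789 FPKM in lean pig-402, pig-407, pig-413, pig-525 and pig-577, and at 0.120, 0.319, 0.817, 0.658 and 0.727 in obese pig-433, pig-473, pig-524, pig-529 and pig-572. High and low values occurred in both groups, and lean pig-577 was above obese pig-529 and pig-572. The log2 difference was 0.20 on the scale of log2 of FPKM plus 1, which understates the change of low genes (two-sided exact permutation p = 0.325). It was 0.62 with a pseudocount of 0.1 (p = 0.310) and ran from 0.14 to 0.32 with each pig left out. These values rest on 8 to 91 fragments per library, as implied by the bounds that cufflinks gave. TBX2 was more even, at 0.413, 0.439, 0.306, 0.330 and 0.449 FPKM in the lean pigs and 0.343, 0.358, 0.514, 0.370 and 0.333 in the obese pigs, in the same order. Its means of 0.387 ± 0.0653 and 0.384 ± 0.0740 differed by less than the spread in either group (exact permutation p = 0.921). The 54 to 141 fragments behind each TBX2 value make it a low but measured transcript.

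SIX2 and NPAS1 were near 0. SIX2 was listed at 0 in lean pig-402, pig-413 and pig-525, with 0.0225 in pig-407 and 0.0280 in pig-577, each from 1 fragment. In obese pigs it stood at 0.354 in pig-433 from 15 fragments, 0.153 in pig-473 from 7, 0.0740 in pig-529 from 3, 0.0175 in pig-524 from 1, and was listed at 0 in pig-572. The highest values were thus in obese pigs, but the groups overlapped (exact permutation p = 0.119). With each pig left out in turn, the exact permutation p ran from 0.0238 to 0.190, and it was under 0.05 only without obese pig-572 (0.0238) or pig-524 (0.0476), the obese pigs with 0 and 1 fragments. NPAS1 was above 0 in 5 of the 10 pigs, at 0.0222 FPKM in lean pig-402 and between 0.00756 and 0.0611 in obese pig-433, pig-524, pig-529 and pig-572, with at most 6 fragments in a library (exact permutation p = 0.206). OTX2 was listed at 0 in all 11 libraries. With at most 15 fragments in a library, neither SIX2 nor NPAS1 reached p under 0.05 with all pigs kept, and OTX2 was not tested.

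**Figure D4:**
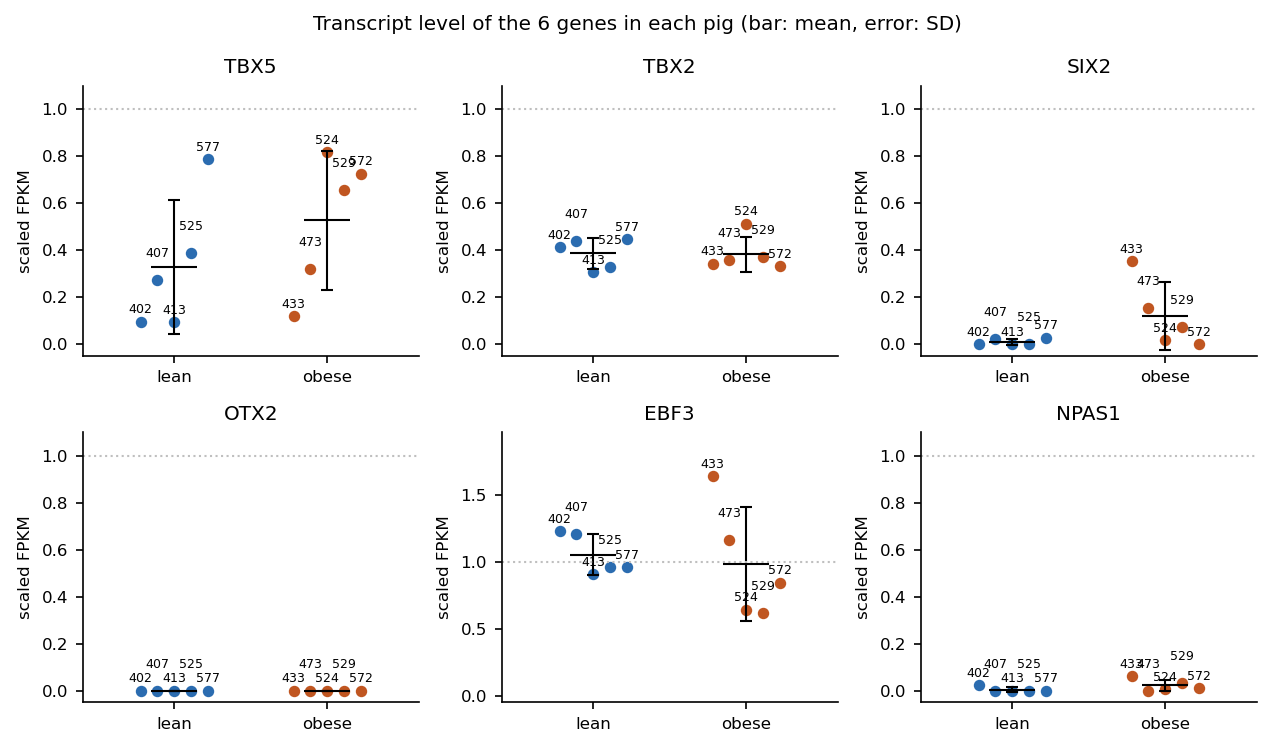
Scaled FPKM of the 6 genes in each of 5 lean and 5 obese pigs (points with pig numbers), with mean and SD, and the level of 1 FPKM dotted. The points of EBF3 lie around 1, those of TBX5 and TBX2 below it, and OTX2 is listed at 0 throughout.

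Set beside each other, the genes with the largest RRBS differences, TBX5 and SIX2, had transcripts under 1 FPKM in every pig. RRBS levels and transcripts were not compared by animal, since the RRBS tables used here give group means. The genes whose transcript pattern over the 10 pigs was most like that of EBF3, among 10245 others, were NR3C1, the glucocorticoid receptor, with Pearson's r = 0.918 and a Spearman coefficient of 0.891, and RARG, a retinoic acid receptor, with r = 0.912 and a Spearman coefficient of 0.915. They were picked as the highest of all genes, so no p is given.

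Genes next to the 6 loci were few. No other gene locus lay within 100000 bases of TBX5, SIX2 or OTX2. Near TBX2, TBX4 was listed at 0 in all pigs except pig-433 with 0.0112 FPKM, and the microRNA locus ssc-mir-378-2 was listed at 0. Near EBF3, MGMT stood between 14.8 and 25.3 FPKM in lean pigs and between 23.5 and 47.6 in obese pigs, with a log2 difference of 0.75 ± 0.21 (limma adjusted p = 0.133). Near NPAS1, TMEM160 stood at 0.792 ± 0.218 in lean and 1.86 ± 0.319 in obese pigs without overlap, as did 4.14% of all genes tested (log2 difference 0.67 ± 0.12, limma adjusted p = 0.0651). ARHGAP35 stood at 14.1 ± 5.25 and 23.5 ± 3.09 (log2 difference 0.76 ± 0.21, limma adjusted p = 0.133). With lean pig-402 left out, TMEM160 and ARHGAP35 passed the threshold, both at an adjusted p of 0.0412, in a fit where 165 genes passed in place of 1. SAE1, ZC3H4 and the unnamed ENSSSCG00000022958, also near NPAS1, had log2 differences of -0.18, -0.30 and -0.20, with limma adjusted p of 0.260, 0.306 and 0.376.

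Relatives of the 6 genes were in part far more abundant. Of 13 T-box loci found, 3 were expressed, MGA with a mean of 7.61 FPKM in lean and 6.28 in obese pigs, TBX18 at 2.46 ± 0.573 and 1.84 ± 0.496, and TBX15, whose obese mean barely reached 1 FPKM and lay under it without pig-572 or without pig-529. The 2 tested, MGA and TBX18, did not pass the threshold, with a median log2 difference of -0.27. TBX15, a factor tied to fat depots and skeleton, stood at 0.169, 0.338, 0.508, 0.410 and 0.193 FPKM in lean pig-402, pig-407, pig-413, pig-525 and pig-577, and at 0.628, 0.868, 0.802, 1.05 and 1.66 in obese pig-433, pig-473, pig-524, pig-529 and pig-572. Every obese pig was above every lean pig, as in 3.48% of the 17083 genes above 0 in at least 5 pigs, in either direction. The log2 difference was 0.58 (two-sided exact permutation p = 0.00794, the smallest that 5 against 5 pigs allow, with no adjustment over genes). The gene lay under the filter of the limma fit. It was named only because its obese mean reached 1 FPKM. That choice favours genes higher in obese pigs, so nothing is read from this p.

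Among the EBF genes and their cofactors, 0 of 5 loci tested passed the threshold, 4 were lower and 1 was higher in obese pigs, and their median log2 difference was -0.28, against 0.00 over all genes tested and -0.45 over the fibroblast and preadipocyte list. EBF1 stood at 26.5 ± 5.48 FPKM in lean and 20.8 ± 3.60 in obese pigs, far above EBF3. EBF2, a factor of brown and beige fat, is annotated at 2 loci, with 3.89 ± 1.07 and 2.28 ± 0.459 at the first (log2 difference -0.56 ± 0.15, limma adjusted p = 0.131) and 1.28 ± 0.226 and 0.888 ± 0.233 at the second. Both EBF2 loci count among the 4 lower ones, and the median of -0.28 is the log2 difference of the second. ZNF423, a cofactor, stood at 3.14 ± 1.09 and 4.02 ± 2.41.

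In the SIX-EYA-DACH network 0 of the 2 loci tested and reported here passed, with a median log2 difference of 0.07. EYA3 stood at 1.78 ± 0.434 FPKM in lean and 2.04 ± 0.341 in obese pigs, and DACH1 between 0.952 and 1.38 and between 0.681 and 2.79. No locus of the 16 found among the OTX and other paired-like genes was expressed, and OTX2 was 1 of 9 listed at 0 in every pig. In the bHLH-PAS family 0 of 8 loci tested passed, with a median of 0.00. HIF1A, the oxygen-regulated subunit, stood at 28.9 ± 7.10 and 33.9 ± 7.09 FPKM, ARNTL2 at 28.5 ± 3.51 and 28.8 ± 6.19, and ARNT between 8.41 and 12.6 and between 6.72 and 9.07 (limma adjusted p = 0.180). The other 5 loci, EPAS1, CLOCK, AHR, NCOA1 and NCOA3, had group means between 1.38 and 7.21 FPKM. NPAS1 was far under all of them.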

How the data were processed

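The authors mapped reads to Sscrofa10.2. Per the submitters' processing notes, tools included Trimmomatic 0.22, STAR 2.3.1, Cufflinks 2.2.0, Bismark 0.10 and Bowtie2 2.1.0. FPKM values and their bounds were estimated by the authors with Cufflinks. The deposited RRBS value is a fraction, the group mean of methylation over the CpGs of a region found with metilene, multiplied here into percent, and other columns give the number of CpGs. For mDNAcap, the authors deposited values of another kind, read counts divided by 1 constant per library, in windows of 1000 bases moved by 100 bases that passed a G-test with diffReps 1.55.4 at p under 0.0001. Columns of the authors' comparisons (fold changes and p-values from Cuffdiff, diffReps and metilene, and the table of hotspots) were not used.

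FPKM of entries sharing an identifier (52 of 25337) were summed. Libraries were scaled by median-of-ratios size factors, and those of pig-572 were averaged. Genes with a mean deposited FPKM of at least 1 (10246, without the 9 with a failed estimate) entered limma 3.58.1 under R 4.3.3 as log2(FPKM + 1), using eBayes and its trend option. P-values were adjusted after Benjamini and Hochberg over all genes tested, at a threshold of 0.05. For single genes above 0 in at least 5 pigs, all 252 splits gave an exact two-sided permutation p. The mDNAcap counts were tested likewise over all 7401 regions, with 100000 resamples for each region near a member (two-sided). The limma step was also run on simulated data. Changes were placed only in features at or above the median level, so low genes are not covered. Fragments behind an FPKM were derived from the upper bound, taken as the value plus 2 times the value over the square root of the fragments. Reads in an mDNAcap region were the value divided by the step of its library, found within the rounding of the constant in the header; of 144284 values of at most 50 reads, 100% were whole within 0.1. Reads within the deposited regions came to 124676 to 1557617 per animal, and genes at 1 FPKM or more to between 8950 and 10291 per library. No count model was fitted to them. Windows of 100000 bases around the loci of the expression tables were used. Gene names came from the tables for 17794 genes and from a list of gene names for 1157.

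The genes named are the 6 members, all genes within the window, genes of the 5 families with a mean of at least 1 FPKM in a group, the 5 most abundant HOX genes, 1 or 2 of the most abundant genes of each marker list with defining markers at 0, LEP (of the adipocyte list, named after seeing its values), and the 2 genes most like each expressed member. A gene of the lists is not reported here and was left out of the counts of its list. Members and lists were chosen with earlier results of these data known. Alternatives were other pseudocounts, scalings, filters, windows and CpG minima, and each pig left out. Calculations used Python 3.11.15, numpy 2.4.6, pandas 2.3.3 and scipy 1.17.1, and figures matplotlib 3.10.9.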

Additional observations from a re-analysis of the deposited data

Results flagged for a closer look

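A pig stood far from the other 4 of its group in 5 of the 57 groups of gene and phenotype examined, where chance gives about 1 in 20 for groups with measured values. TBX2 was at 0.514 FPKM in obese pig-524, with the others between 0.333 and 0.370. NPAS1 was at 0.0222 in lean pig-402 and TBX4 at 0.0112 in obese pig-433, each with the others listed at 0, so these flags show only that the gene was detected in 1 pig of the group. NCOA3 was at 1.72 in lean pig-407 with the others between 1.21 and 1.35. EPAS1 was at 11.2 in obese pig-433 with the others between 5.20 and 6.41.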

How the results depend on the processing

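With all pigs, 1 gene passed the threshold in RNAseq. The count was 5 with no filter, 0 on FPKM as deposited (1396 at an unadjusted p under 0.05 in limma) and 179 with both libraries of pig-572 counted as replicates. It ran from 1 to 165 with each pig left out, and the 165 came without lean pig-402. EBF3 passed in none of the RNAseq alternatives in which it was tested. Log2 differences near 0 changed sign without passing the threshold. For TBX2 it was 0.000203 on FPKM as deposited and between -0.0368 and 0.0120 with each pig left out. For DACH1 it was -0.0167 on FPKM as deposited and with the upper quartile, -0.0485 with both libraries of pig-572 counted, -0.0655 with a pseudocount of 0.1, -0.00816 without the second library of pig-572, and between -0.203 and 0.0902 with each pig left out. For NCOA3 it was -0.00675 as deposited, -0.000287 with the pseudocount of 0.1, -0.0174 with the upper quartile, and between -0.0783 and 0.0608 with each pig left out. With the series of pig numbers as a covariate, chosen after seeing the data, it was 0.111 for EPAS1. EPAS1 was at 0.00420 with the pseudocount of 0.1, and ARNTL2 at 0.00842 with both libraries of pig-572 counted. With each pig left out, EPAS1 ran from -0.246 to 0.144, ARNTL2 from -0.101 to 0.118, CLOCK from -0.0136 to 0.107 and ZNF423 from -0.0330 to 0.358. The causes were not tested. TMEM160 also passed with both libraries of pig-572 counted (adjusted p = 0.0345).

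Near the 6 genes, the 5-5 RRBS table held 10 regions, 5 of them lower in obese pigs. By construction there were fewer with a window of 10 kb (6, of which 2 lower), with 50 kb (7, 3 lower), with a difference of at least 20 points (4, 3 lower) and with at least 12 CpGs (5, 2 lower). The 3-3 table, which divides the regions differently, held 14, 9 of them lower.

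Of the 8 mDNAcap regions past the threshold, 5 lay within 50 kb and 3 had a mean normalized count of at least 20. The median of ratios left 5 of the 8 and the mean read count per bin 6. Of all regions, 2902 passed with the median of ratios, 3195 with the mean read count per bin and 2058 of those with a mean count of at least 20, in place of 7118. All 8 kept their direction under the scalings and pseudocounts tried. No paired analysis was possible because the replicate numbers of lean and obese pigs name different animals. The mDNAcap animals came from run folders that each held both groups, 5 obese and 5 lean in folder a and 6 and 6 in folder b. The folder was not part of the mDNAcap fits.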

Other observations

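Some HOX genes, which mark position along the body axis, were present in these adipocytes. Of 39 loci found, 8 were expressed, and 0 of the 8 tested passed the threshold in limma, with a median log2 difference of -0.06. HOXD8 led at 13.0 ± 2.85 FPKM in lean and 14.3 ± 0.853 in obese pigs (SD, n = 5 each), followed by HOXB7 with means of 3.98 and 3.52, HOXA5 at 3.09 ± 0.309 and 2.55 ± 0.844, HOXA6 at 2.40 ± 0.375 and 2.34 ± 0.954, and HOXA7 at 1.69 ± 0.298 and 1.44 ± 0.0802.

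TBX5 levels split by the pigs' numbers, a pattern noticed in the values and not tested. The 5 pigs numbered in the 400s had 0.0935 to 0.319 FPKM and the 5 numbered in the 500s 0.389 to 0.817, with lean and obese pigs in both series. Within the 400s, the means were 0.154 in lean (n = 3) and 0.219 in obese pigs (n = 2), and within the 500s 0.589 in lean (n = 2) and 0.734 in obese pigs (n = 3). EBF3 tended the other way, with 0.910 to 1.64 FPKM in the 400s and 0.621 to 0.963 in the 500s. Its means were 1.12 in lean and 1.40 in obese pigs within the 400s, but 0.962 in lean and 0.703 in obese pigs within the 500s, so the groups differed in opposite directions. The labels do not say what the numbers stand for.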
